A study of Homo sapiens with 4 samples.

Results

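Heat shock proteins of the cytosol are molecular chaperones that hold, fold and hand on other proteins. The set described here has 10 genes, taken by symbol from a fixed list, out of 57820 gene IDs listed in the complete files. These are the HSP70 genes HSPA1A, HSPA1B and HSPA8, the HSP110 gene HSPH1, the J-domain genes DNAJB1 and DNAJA1, the HSP90 genes HSP90AA1 and HSP90AB1, the small heat shock gene HSPB1 and HSF1. HSF1 is not a chaperone but the transcription factor that switches heat shock genes on, so the set holds 9 chaperone genes and 1 regulator. All 10 are listed in every file and all 10 passed the filter on low values (a mean of at least 1 RPKM), among 10771 genes tested.

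MOLM-13, the cell line used, derives from human acute myeloid leukaemia. The GADD45g group (2 RNA-seq libraries) received doxycycline, labelled as 1 mg/ml, for 4 days so that GADD45G was overexpressed; its product belongs to a family induced by growth arrest and DNA damage. The untreated group (2 libraries) received none. The design text calls the libraries of a group biological replicate experiments. The promoter, the vector and whether the line is 1 clone are not given in the labels, and doxycycline without GADD45G was not analysed here, so the drug and the expressed gene cannot be told apart.

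RPKM counts reads scaled to the length of the gene and the depth of the library. Depth, recovered from the values, was 18895470 and 15968886 reads in the GADD45g libraries and 18778791 and 15683931 in the untreated ones. GADD45G was at 3236 and 2118 RPKM in GADD45g libraries, against 10.5 and 0.289 RPKM in untreated libraries. Of 6 myeloid markers listed in all files, SPI1, LYZ and CD33 were above 1 RPKM in every library, whereas MPO, the myeloperoxidase gene, was below 1 RPKM in every library. Their sum was 383 and 342 RPKM in GADD45g libraries, against 1261 and 967 RPKM in untreated libraries. Most of it was LYZ, the lysozyme gene, at 268 and 242 RPKM in GADD45g libraries, against 1173 and 868 RPKM in untreated libraries. The level of FLT3 was 0.0889 and 0.0451 RPKM in GADD45g libraries, against 0.958 and 1.19 RPKM in untreated libraries. CD33 was also lower, at 12.5 and 13.7 RPKM in GADD45g libraries, against 17.6 and 21.5 RPKM in untreated libraries. SPI1 went the other way, at 101 and 84.0 RPKM in GADD45g libraries, against 68.7 and 74.7 RPKM in untreated libraries. For CSF1R the groups overlapped, so the myeloid markers did not all move the same way. The part of these marker differences in the heat shock results was not tested. Markers of epithelial cells set both replicate 1 libraries apart: 6 of 8 reached 1 RPKM in each, against 0 of 8 in each replicate 2 library. The other markers, KRT7 and ELF3, were below 1 RPKM in every library. The summed level of all 8 was 41.0 RPKM in GADD45g replicate 1 and 41.8 RPKM in untreated replicate 1. The same sum was 0.271 RPKM in GADD45g replicate 2 and 0.530 RPKM in untreated replicate 2, where KRT19 and EPCAM were at 0. Because the libraries are bulk RNA, fewer cells of a type and less RNA per cell cannot be told apart.

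In the textbook account, HSF1 is held inactive by chaperones, is released when unfolded proteins occupy them, forms a trimer and binds heat shock elements, which are repeats of the unit GAA and its complement TTC in alternating orientation. HSPA1A and HSPA1B encode the stress-inducible HSP70, and HSPA8 encodes the constitutive form, HSC70. Likewise HSP90AA1 encodes the more inducible HSP90 alpha and HSP90AB1 the largely constitutive HSP90 beta. J-domain proteins deliver clients to HSP70 and stimulate its ATPase, HSPH1 acts as its nucleotide exchange factor, and HSPB1 (HSP27) forms oligomers that hold unfolded proteins.

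The upstream sequences of the paired HSP70 genes are shown because both genes rose and they are nearly identical. Sequences are from RefSeq (GRCh38.p14), and 9 of the 10 genes matched its table. Capitals mark a pair of heat shock units, GAANNTTC or TTCNNGAA, searched on both strands in the 250 bases before each start. HSPA1A (chr6:31815293-31815463, plus strand) and HSPA1B (chr6:31827488-31827658, plus strand) are shown from base -250 to base -80, counted from the start of transcription.
HSPA1A: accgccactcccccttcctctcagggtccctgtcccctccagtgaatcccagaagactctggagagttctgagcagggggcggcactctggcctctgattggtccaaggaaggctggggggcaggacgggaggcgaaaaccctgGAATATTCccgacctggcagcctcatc
HSPA1B: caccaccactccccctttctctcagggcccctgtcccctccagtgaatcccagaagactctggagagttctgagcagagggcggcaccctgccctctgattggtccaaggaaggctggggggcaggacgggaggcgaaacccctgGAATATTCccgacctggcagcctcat
The whole 250 bases of both genes were 93.6% identical, and the same 8 letters stood at -106 in HSPA1A and at -105 in HSPA1B. HSPA8 was 49.3% identical to HSPA1A over this window.

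Longer matches, with 3 alternating units (GAANNTTCNNGAA or TTCNNGAANNTTC), are shown with 8 bases on either side because they stood upstream of both genes that fell. HSPA8 had one at -230 and one at -55 (chr11:123062346-123062374 and chr11:123062171-123062199, minus strand). HSP90AB1 had one at -165 and one at -112 (chr6:44247770-44247798 and chr6:44247823-44247851, plus strand), both before the third of its 3 listed starts. HSP90AA1, whose difference did not pass the test, had one at -88 (chr14:102087112-102087140, minus strand), before the second of its 2 listed starts.
HSPA8 at -230: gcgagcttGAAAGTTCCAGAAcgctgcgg
HSPA8 at -55: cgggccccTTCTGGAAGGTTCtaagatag
HSP90AB1 at -165: ggagcaggTTCTGGAAGATTCatgggctc
HSP90AB1 at -112: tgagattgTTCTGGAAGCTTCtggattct
HSP90AA1 at -88: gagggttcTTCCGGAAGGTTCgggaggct
Of 35116 windows of 250 bases before listed starts, 11.6% held a pair and 0.441% held 3 units. The 9 matched genes have 14 listed starts, of which 8 had a pair and 3 had 3 units, each in a different gene. A 3-unit match contains pairs, and a match to these letters is a description, not a binding site. Only exact units were searched. Unmarked letters can therefore still hold elements with an imperfect unit, also upstream of HSPA1A and HSPA1B, and these counts do not rank genes by their elements. The map of these matches places them along each window.

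**Figure D1:**
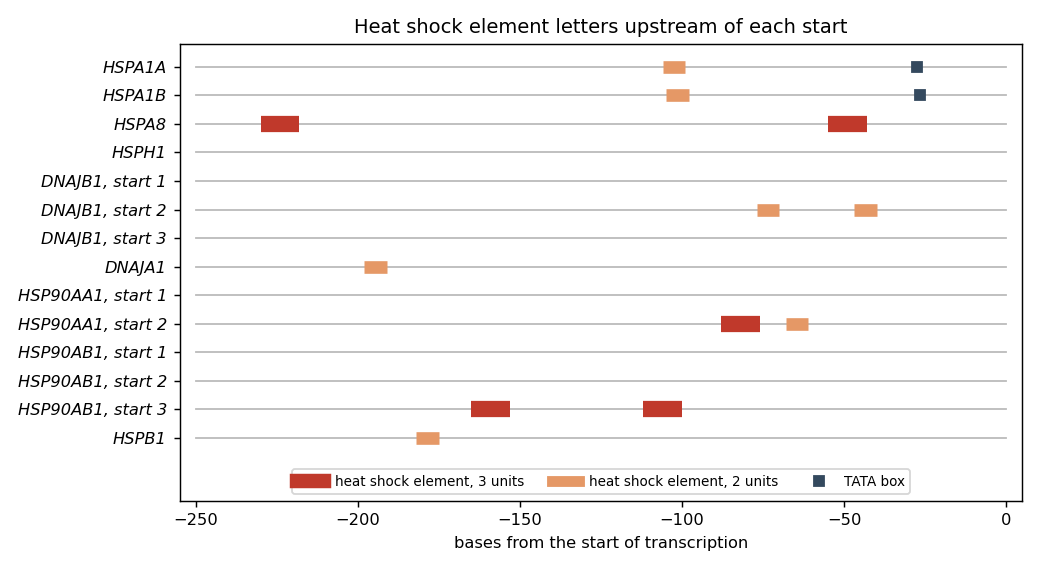
Horizontal lines are the 250 bases before each RefSeq start of the 9 matched genes (x axis, bases from the start), with heat shock element letters of 3 units in red and of 2 units in orange, and the TATA box as a square. HSPA8 and HSP90AB1 carry 2 exact matches of 3 units each, and HSPA1A and HSPA1B carry 1 exact pair and a TATA box each. Elements with an imperfect unit were not searched for and are not drawn.

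The members moved both ways. HSPA1A and HSPA1B rose, HSPA8 and HSP90AB1 fell, and 6 genes did not pass the threshold (limma on log2(RPKM + 1), Benjamini-Hochberg adjusted p under 0.05 over all 10771 genes). The 2 of 10 called higher compare with 12.2% of all tested genes, and the 2 of 10 called lower with 26.7%; in either direction it was 4 of 10, against 38.9%. GADD45g libraries lay wholly above untreated ones for 5 of the 10 genes, against 24.1% of tested genes, and wholly below for 3, against 45.8%. The median log2 change was 0.34 in the set and -0.21 over all tested genes. TMM scaling, which assumes that most genes do not change, set the overall median near 0 (0.0047), and the shares of all tested genes were then 17.8% higher and 19.0% lower. These data do not decide between the scalings.

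**Figure D2:**
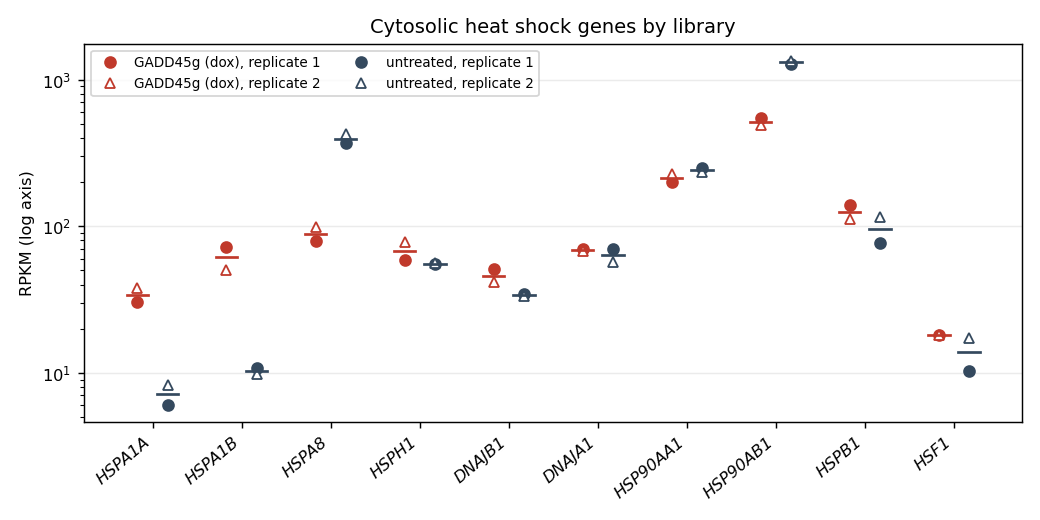
Points are RPKM on a log axis for each gene in each library, with GADD45g libraries (red) left of untreated ones (blue), circles for replicate 1, triangles for replicate 2 and bars for group means. HSPA1A and HSPA1B stand higher in both GADD45g libraries, and HSPA8 and HSP90AB1 stand lower.

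HSPA1A (ENSG00000204389) was at 30.4 and 38.0 RPKM in GADD45g libraries, against 6.06 and 8.28 RPKM in untreated libraries. Both GADD45g values lay above both untreated ones, and the means differed 4.77-fold (34.2 ± 5.36 and 7.17 ± 1.57 RPKM, SD, n = 2 each). The log2 change was 2.11 ± 0.24 (SE), with an adjusted p of 9.47e-05 in limma. HSPA1B (ENSG00000204388) was at 72.2 and 50.3 RPKM in GADD45g libraries, against 10.8 and 9.82 RPKM in untreated libraries. Again the groups were far apart, with a 5.93-fold difference in means (61.3 ± 15.4 and 10.3 ± 0.724 RPKM, SD, n = 2 each). Its log2 change was 2.44 ± 0.25 (limma adjusted p = 4.78e-05). Only 112 of the tested genes had a larger increase than HSPA1B, and 158 a larger one than HSPA1A.

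How these 2 genes share the signal is uncertain. Of the 50-base windows in the longest HSPA1A transcript, 72.6% also occur in HSPA1B, and the sources used here do not give how reads that match both were assigned. The HSPA1B level divided by the HSPA1A level was 2.37 and 1.33 in GADD45g libraries, against 1.79 and 1.19 in untreated libraries. In both groups replicate 1 had the higher ratio, and the groups overlapped. Their summed level was 103 and 88.3 RPKM in GADD45g libraries, against 16.9 and 18.1 RPKM in untreated libraries, a 5.45-fold difference in means. The sum depends little on how reads were divided between the pair, because their lengths, 2433 and 2520 bases, are close. It could still depend on whether reads that match both were dropped or counted for each. HSPA1B also overlaps AL671762.1 on the same strand over 36.5% of its length, so part of its reads could belong to either. DNAJB1, HSP90AA1 and HSF1 overlap a gene of the opposite strand over 5.75%, 3.75% and 2.62% of their lengths, and strand use in counting is not given.

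HSPA8 (ENSG00000109971), whose product also strips clathrin from vesicles and serves chaperone-mediated autophagy, fell. It was at 78.7 and 99.5 RPKM in GADD45g libraries, against 368 and 424 RPKM in untreated libraries. The groups did not overlap, and the mean was 4.45-fold lower in GADD45g libraries (89.1 ± 14.7 and 396 ± 39.7 RPKM, SD, n = 2 each). The log2 change was -2.15 ± 0.26 (limma adjusted p = 0.000131), and 183 tested genes fell further. By mean RPKM, HSPA8 ranked 295th of the tested genes in GADD45g libraries and 55th in untreated ones. In the longest HSPA8 transcript, 15.4% of 50-base windows occur in another annotated gene, and the closest of 10 such genes was the pseudogene HSPA8P1, which shares 6.34%.

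The fall of HSPA8 and the rise of the HSPA1 pair changed the make-up of the cytosolic HSP70 transcripts. HSPA1A and HSPA1B together held 56.6% and 47.0% of the summed RPKM of HSPA1A, HSPA1B and HSPA8 in GADD45g libraries, against 4.39% and 4.09% in untreated libraries. All 3 genes summed to 181 and 188 RPKM in GADD45g libraries, against 385 and 443 RPKM in untreated libraries. The mean of this sum, which leaves out other HSP70 genes, was 2.24-fold lower in the GADD45g group. Lengths matter to such sums and shares: the files' RPKM divide HSPA8 reads by 4849 bases of annotated exon, against 2433 for HSPA1A. With reads divided by the longest coding transcript of each gene, the HSPA1 share was 39.7% and 30.9% in GADD45g libraries, against 2.26% and 2.10% in untreated libraries.

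**Figure D3:**
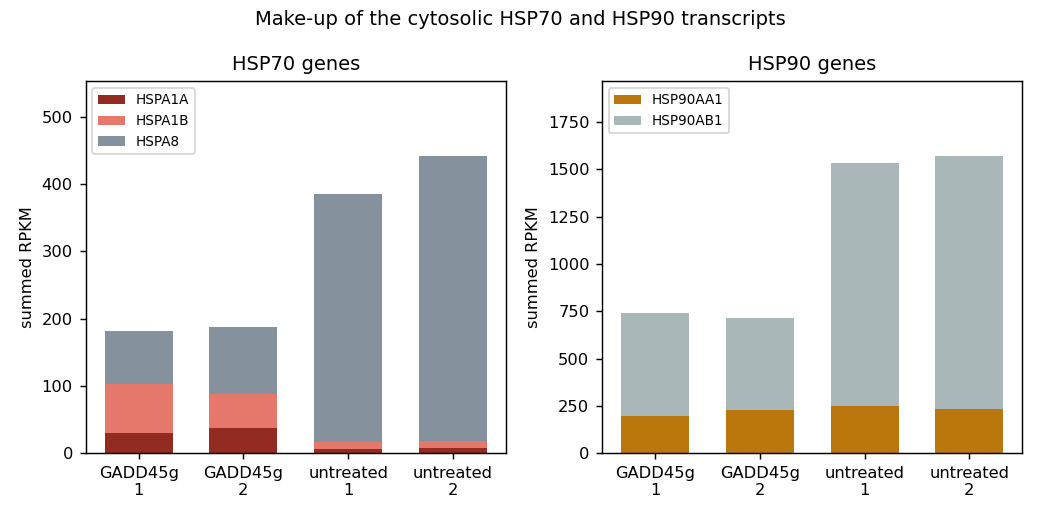
Stacked bars give RPKM summed over HSPA1A, HSPA1B and HSPA8 (left) and over HSP90AA1 and HSP90AB1 (right) in each library, GADD45g libraries first. The sum of HSPA1A, HSPA1B and HSPA8 is 181 and 188 RPKM in GADD45g libraries, against 385 and 443 RPKM in untreated ones. The grey HSPA8 part shrinks while the red HSPA1 part grows.

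HSP90AB1 (ENSG00000096384), which encodes HSP90 beta, was the most abundant member in each group. It was at 544 and 488 RPKM in GADD45g libraries, against 1284 and 1338 RPKM in untreated libraries. Both GADD45g values were far below both untreated ones, a 2.54-fold lower mean (516 ± 39.6 and 1311 ± 38.1 RPKM, SD, n = 2 each). The log2 change was -1.35 ± 0.27 (limma adjusted p = 0.00272). Without a filter on low values, over 20689 tested genes, its adjusted p was 0.112. Other annotated genes hold 18.8% of the 50-base windows of HSP90AB1 and 17.5% of those of HSP90AA1.

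HSP90AA1 (ENSG00000080824), which encodes HSP90 alpha, was at 199 and 228 RPKM in GADD45g libraries, against 251 and 235 RPKM in untreated libraries. These groups did not overlap, but they lay close together: the log2 change was -0.19 ± 0.25, with a 95% interval of -0.75 to 0.38 and a limma adjusted p of 0.598. Its sign turned after TMM scaling (0.072) and with the median change set to 0 (0.026). The alpha gene held 26.8% and 31.9% of the summed HSP90 RPKM in GADD45g libraries, against 16.3% and 14.9% in untreated libraries. In sum the HSP90 genes stood at 743 and 716 RPKM in GADD45g libraries, against 1535 and 1573 RPKM in untreated libraries, and HSP90AB1 accounted for nearly all of that difference.

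None of the 3 HSP70 partners among the members, HSPH1, DNAJB1 and DNAJA1, passed the test. HSPH1 (ENSG00000120694), the HSP110 exchange factor, was at 58.6 and 77.9 RPKM in GADD45g libraries, against 55.0 and 55.9 RPKM in untreated libraries. Both GADD45g values were higher, yet they differed from each other more than replicate 1 did from the untreated libraries. The log2 change was 0.28 ± 0.25 (95% interval -0.27 to 0.83; limma adjusted p = 0.403). DNAJB1 (ENSG00000132002), the J-domain protein HSP40, was at 50.7 and 41.4 RPKM in GADD45g libraries, against 34.5 and 33.4 RPKM in untreated libraries. Here too the groups did not overlap, but the log2 change of 0.42 ± 0.24 did not pass (95% interval -0.10 to 0.94; limma adjusted p = 0.184). It passed under 1 setting, TMM scaling (0.67, adjusted p = 0.0433).

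DNAJA1 (ENSG00000086061), a second cytosolic J-domain protein, was at 69.7 and 67.8 RPKM in GADD45g libraries, against 70.0 and 56.8 RPKM in untreated libraries. The GADD45g values lay between the untreated ones, and the log2 change was 0.12 ± 0.24 (95% interval -0.41 to 0.66; limma adjusted p = 0.722). Without untreated replicate 2 its sign turned (-0.026). The interval allows a difference of either sign that is smaller than that of any called member.

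HSPB1 (ENSG00000106211) was at 139.6 and 112 RPKM in GADD45g libraries, against 77.0 and 116 RPKM in untreated libraries. The groups overlapped: GADD45g replicate 2 was below untreated replicate 2. The log2 change was 0.40 ± 0.28 (95% interval -0.22 to 1.02; limma adjusted p = 0.286). Between replicate 2 libraries alone, which hold almost no epithelial marker signal, the difference was -0.054, and between replicate 1 libraries it was 0.85. The replicate 1 libraries, which hold the epithelial markers, had the higher HSPB1 value in the GADD45g group and the lower one in the untreated group. The part of epithelial cells in its level was not tested.

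HSF1 (ENSG00000185122), the regulator, was at 18.1 and 18.0 RPKM in GADD45g libraries, against 10.3 and 17.3 RPKM in untreated libraries. Untreated replicate 1 stood well below the other libraries, which were close to each other, and this was a library with epithelial markers, as was GADD45g replicate 1; the part of those cells in its level was not tested. The log2 change was 0.40 ± 0.26 (95% interval -0.18 to 0.98; limma adjusted p = 0.256), and 0.049 between replicate 2 libraries. HSF1 is activated mainly through its protein, so its RNA level does not measure its activity.

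**Figure D4:**
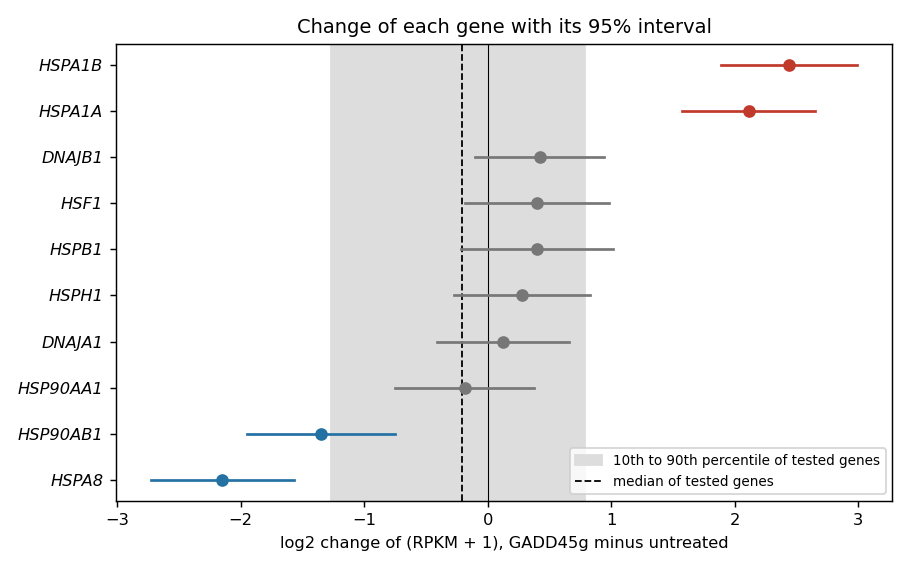
Points are log2 changes of RPKM + 1 (GADD45g minus untreated, x axis) with 95% intervals from limma, red where higher, blue where lower and grey where the test was not passed. The dashed line is the median of all tested genes (-0.21) and the grey band runs from their 10th to 90th percentile; HSPA1A and HSPA1B lie right of the band, and HSPA8 and HSP90AB1 left of it.

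The order of levels within a group also differed. In GADD45g libraries it ran HSP90AB1, HSP90AA1, HSPB1, HSPA8, DNAJA1, HSPH1, HSPA1B, DNAJB1, HSPA1A and HSF1. The neighbours from DNAJA1 down to DNAJB1 overlapped in their library values and are not ordered beyond their spread. In untreated libraries it ran HSP90AB1, HSPA8, HSP90AA1, HSPB1, DNAJA1, HSPH1, DNAJB1, HSF1, HSPA1B and HSPA1A, and only HSF1 and HSPA1B overlapped. The 9 chaperone genes summed to 1242 and 1203 RPKM in GADD45g libraries, against 2157 and 2278 RPKM in untreated libraries. That sum was 1.81-fold lower in the GADD45g group, with HSPA8 and HSP90AB1 called lower and HSP90AA1 lower without a call.

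Among 6 other tested cytosolic genes with an HSPA symbol, 3 were called higher and 2 lower (median log2 change 0.46). The shares of all tested genes were 12.2% and 26.7%. The 2 lower genes were HSPA4 and HSPA4L, and the HSPA4 call did not hold under every alternative. Of the 6, HSPA6, counted as higher, and HSPA4L, counted as lower, passed the filter on low values through 1 group alone. Their calls follow in part from that filter, so these counts and the median are not read as a result. HSPA6, the strictly stress-inducible HSP70B', was at 7.36 and 6.27 RPKM (368 and 265 reads) in GADD45g libraries, against 0.262 and 0.265 RPKM (13 and 11 reads) in untreated libraries. That is a 25.9-fold difference in means. HSPA6 passed the filter on low values only through the GADD45g group, where it is high, so no p-value is given for it. The same search before DNAJB2 and BAG3, both called higher, found neither a pair nor 3 units. HSPA4L, which was lower, had a pair at -170, before the second of its 3 listed starts. Upstream of HSPA6 a 3-unit match stood at -74, shown with 8 bases on either side (chr1:161524458-161524486, plus strand) for comparison with the members.
HSPA6 at -74: cggaaaggTTCGCGAAAGTTCgcggcggc
HSPA1L, which lies beside HSPA1A and is known mainly from testis, averaged 12.6 ± 5.77 RPKM in GADD45g libraries and 3.93 ± 0.593 RPKM in untreated ones (SD, n = 2 each). HSPA2, also a testis form, was at 5.48 and 2.93 RPKM in GADD45g libraries, against 1.09 and 1.05 RPKM in untreated libraries. Both lost their call when 1 library was left out: HSPA1L without untreated replicate 1 (adjusted p = 0.0635) and HSPA2 without GADD45g replicate 1 (0.0546). HSPA4L, an HSP110 relative of HSPH1, had a 6.36-fold lower mean, with 0.445 ± 0.171 RPKM in GADD45g libraries and 2.83 ± 0.236 RPKM in untreated libraries (SD, n = 2 each), and it passed the filter only through the untreated group.

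Among 13 other J-domain genes, 2 rose, 2 fell and 9 did not pass (median -0.11). That is 15.4% each way, against 12.2% higher and 26.7% lower among all tested genes. DNAJB2, which sorts ubiquitinated clients to the proteasome, was at 26.3 and 18.1 RPKM in GADD45g libraries, against 3.77 and 3.10 RPKM in untreated libraries (log2 change 2.37, limma adjusted p = 4.95e-05). DNAJB5 was 3.67-fold higher in the GADD45g group. DNAJC9, a histone chaperone, was 2.29-fold lower, and DNAJC2, which works at the ribosome, 1.84-fold lower; the DNAJC2 call was lost after each of 4 rescalings (adjusted p = 0.0513 to 0.0772) and without untreated replicate 2 or GADD45g replicate 1 (0.0884 and 0.173).

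Of 9 HSP70 regulators, 1 rose and 2 fell (median -0.23). These shares, 11.1% and 22.2%, are near the 12.2% and 26.7% of all tested genes. BAG3, an HSF1 target that links HSP70 to autophagy, rose 2.27-fold, to 14.9 and 14.3 RPKM in GADD45g libraries, against 5.54 and 7.36 RPKM in untreated libraries (limma adjusted p = 0.0035). HSPBP1, an inhibitory exchange factor, was 3.80-fold lower, and BAG5, another exchange factor, 2.09-fold lower. The BAG5 call was lost without GADD45g replicate 2 (adjusted p = 0.0735). BAG4 had a log2 change of -0.42 that did not pass (adjusted p = 0.158).

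HSP90 cochaperones gave 1 rise and 3 falls among 13 tested (median -0.29). These shares, 7.69% and 23.1%, compare with 12.2% and 26.7% of all tested genes. CDC37, which brings kinases to HSP90, was at 125 and 96.4 RPKM in GADD45g libraries, against 54.5 and 59.9 RPKM in untreated libraries (limma adjusted p = 0.0134; 0.0724 without untreated replicate 1 and 0.106 without GADD45g replicate 1). FKBP5, an immunophilin induced by steroid receptors, fell 3.10-fold, to 19.9 and 21.5 RPKM in GADD45g libraries, against 65.7 and 62.9 RPKM in untreated libraries (adjusted p = 0.000369). AHSA1, the activator of the HSP90 ATPase, and the phosphatase PPP5C were 1.60-fold and 1.70-fold lower. Both calls were lost after every rescaling and with any library left out (adjusted p = 0.0523 to 0.201).

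Of 6 tested genes that heat is known to induce outside the chaperone families, 5 rose and 0 fell (median 1.05), against 12.2% and 26.7% of all tested genes. UBB did not pass (log2 change -0.13, limma adjusted p = 0.778). The list was chosen with earlier results of these data known, so its count is a description only. HMOX1, haem oxygenase, was at 18.3 and 17.9 RPKM in GADD45g libraries, against 5.47 and 6.79 RPKM in untreated libraries (limma adjusted p = 0.000596). IER5, an immediate early gene whose product activates HSF1, was 3.52-fold higher, ZFAND2A 2.48-fold and DEDD2 2.08-fold higher. ZFAND2A lost its call without GADD45g replicate 1 (adjusted p = 0.0609), and DEDD2 did so without that library (0.0828) and without untreated replicate 1 (0.0598). Several of these genes also respond to other stresses and to growth factors.

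The chaperonin and the chaperones of other compartments were lower as far as they passed. In the chaperonin TRiC and its partner prefoldin, which fold actin and tubulin, 6 of 14 tested genes fell and 0 rose (median -0.57), against 26.7% lower and 12.2% higher among all tested genes; CCT5 was 3.40-fold lower, CCT2 2.85-fold and the prefoldin subunit VBP1 2.65-fold lower. CCT6A, 1.89-fold lower, lost its call after TMM scaling and without any 1 of 3 libraries (adjusted p = 0.0514 to 0.0708). Of 10 mitochondrial chaperones and proteases 6 fell and 0 rose (median -0.86), against the same 26.7% and 12.2%, with TRAP1, the mitochondrial HSP90, at 4.26 and 3.35 RPKM in GADD45g libraries, against 20.5 and 23.0 RPKM in untreated libraries. HSPD1 (HSP60) was 4.05-fold, DNAJA3 2.45-fold and HSPE1 (HSP10) 2.39-fold lower.

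In the endoplasmic reticulum 6 of 12 tested genes fell and 0 rose (median -0.79), again against 26.7% lower and 12.2% higher among all tested genes. The disulphide isomerases PDIA6 and PDIA4 were 3.21-fold and 2.83-fold lower, and the exchange factor HYOU1 was 2.19-fold lower. HSP90B1 (GRP94), the HSP90 of this compartment, was at 68.9 and 82.8 RPKM in GADD45g libraries, against 151 and 141 RPKM in untreated libraries. HYOU1 lost its call without GADD45g replicate 2 (adjusted p = 0.0700), and HSP90B1 after TMM scaling (0.0505), without untreated replicate 1 (0.0568) and without GADD45g replicate 1 (0.0877). Among heat shock factor genes and partners, HSF2BP was at 0.361 and 0.164 RPKM in GADD45g libraries, against 2.74 and 2.14 RPKM in untreated libraries, and it passed the filter only through the untreated group. HSF2 and HSF4 did not pass (adjusted p = 0.174 and 0.678), and 0 of 7 other small heat shock genes in the files reached the filter on low values.

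Over all 86 tested related genes, 12 rose and 28 fell, which is 14.0% and 32.6% and near the 12.2% and 26.7% of all tested genes. HSPA6, HSPA4L and HSF2BP, which passed the filter through 1 group alone, are among those counted. After TMM scaling 14 rose and 17 fell, against 17.8% and 19.0% of all tested genes. The plot of changes by list shows the lists side by side.

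**Figure D5:**
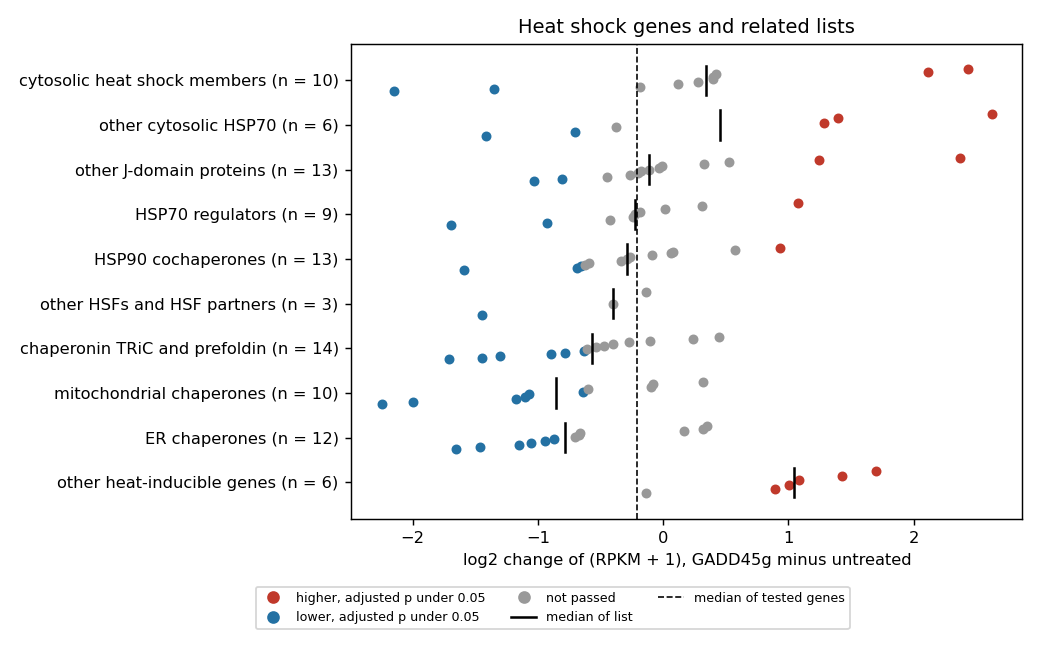
Each point is the log2 change of 1 tested gene (GADD45g minus untreated, x axis) in the heat shock set and in each related list, red where higher, blue where lower and grey where the test was not passed; black bars are list medians and the dashed line the median of all tested genes. Heat-inducible genes lie mostly right of the line (median 1.05), and mitochondrial and ER chaperones mostly left (medians -0.86 and -0.79).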

How the data were processed

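Total RNA of 4 MOLM-13 libraries, 2 with induced GADD45G and 2 untreated, was sequenced after standard Illumina library preparation, per the labels' protocols. The deposited values are RPKM, per the file headers, 1 per Ensembl gene ID. TopHat, Cuffnorm, Cuffdiff and hg19 appear in the submitters' processing notes; the sources used here give no versions, roles, strand or read length. Low values were whole multiples of 1 read (100% within 0.01 reads), which gave the depths; 1 read in a 1 kb gene was worth 0.0529 to 0.0638 RPKM. The file of GADD45g replicate 1 as used here ends after 27332 IDs, and genes were tested where all 4 files list them. IDs were paired with symbols by stripped ID (51996 of 57820) and rows of 1 symbol added up.

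The fit took genes whose mean reached 1 RPKM, with limma 3.58.1 (R 4.3.3) on log2(RPKM + 1), eBayes with trend, two-sided, Benjamini-Hochberg over all 10771 genes, threshold 0.05; a fold change on this scale understates that of low genes. The fit was tested on simulated data. Fold values are ratios of mean RPKM. Sequences come from RefSeq (GRCh38.p14), shared 50-base windows from GENCODE release 29 transcripts; the files' build differs, so no other coordinates are given. The members and lists were chosen with earlier results of these data known. Named genes are the members, up to 4 tested genes per related list with the smallest adjusted p, GADD45G and epithelial markers; markers and list genes named for other reasons were chosen after their values were seen. Alternatives were other pseudocounts, filters, scalings and priors, a replicate block, libraries left out, row handling, missing values kept and voom on recovered reads; shares by transcript length and replicate 2 libraries alone were added after seeing the data.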

Additional observations from a re-analysis of the deposited data

How the results depend on the processing

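HSPA1A, HSPA1B and HSPA8 kept direction and call under all 18 alternatives listed in the methods, with log2 changes of 1.69 to 2.35, 2.09 to 2.69 and -2.31 to -1.89; HSP90AB1 ranged from -1.45 to -1.09, replicate 2 libraries alone included, and lost its call when low genes were kept (adjusted p = 0.112). DNAJB1 passed after TMM scaling. Signs turned for HSP90AA1 after TMM scaling (0.072) and with the median change set to 0 (0.026), for DNAJA1 without untreated replicate 2 (-0.026; -0.026 to 0.27 with 1 library left out) and for HSPB1 between replicate 2 libraries (-0.054); the cause was not tested. With low genes kept, 20689 genes were tested, of which 3.98% were called higher and 7.92% lower. Of the members, 2 were then higher and 1 lower, and 5 related genes were higher and 16 lower. HSPA1L, HSPA2, HSPBP1, BAG5, CDC37, VBP1, HYOU1, IER5, ZFAND2A and DEDD2 were among those no longer called. After TMM scaling 17 related genes were lower, against 19.0% of all tested genes. Leaving out 1 library gave 2 members higher and 2 lower each time, and 7 to 12 related genes higher (7 without GADD45g replicate 1) and 17 to 21 lower (17 without GADD45g replicate 2).

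Libraries with the same title suffix share only a number in the labels. The differences between replicates 1 and 2 correlated across genes (r = 0.35), and a replicate block raised the calls over all genes to 4987 from 4185. With the block, 2 members were higher and 2 lower. Among related genes it was 12 and 35, against 14.8% and 31.5% of all tested genes. Each group has 2 libraries, so p-values rest on a spread borrowed from all genes (prior degrees of freedom 8.72, residual 2). The share of HSPA1 in HSP70 transcripts, GADD45g minus untreated, was 47.6 percentage points, 42.8 to 52.3 with 1 library left out and 33.1 by transcript length.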

Other observations

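Of 37 pseudogenes of the members in the files, 15 are listed in all 4 files, and of these 6 were at 0 in all 4; HSPA8P15 was the highest, at 0.269 and 0.637 RPKM in GADD45g libraries, against 0.542 and 1.30 RPKM in untreated libraries, and the others of the 15 did not exceed 0.0908 RPKM in any library. Among the other 22, listed in 3 files, HSPB1P2 was the highest, at 0 in GADD45g replicate 2, against 0.878 and 0.117 RPKM in untreated libraries. HSBP1, which encodes a small protein that binds HSF1, was not tested because 1 file as used here ends before it; it was at 10.7 RPKM in GADD45g replicate 2, against 14.6 and 11.8 RPKM in untreated libraries.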
